A study of Mus musculus with 4 samples.

Results

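Chemokine receptors were followed in mouse macrophages that had been stimulated with lipopolysaccharide (LPS) plus immune complexes or with LPS alone. The genes are Cxcr4, Ccr1, Ccr2, Ccr3, Ccr7, Ccrl2 and Cx3cr1, 7 of the 18193 genes that the array annotation names alone on at least 1 probe set. Every probe set annotated to only 1 gene, that gene being on the list, was taken, which gave 12 of 45037 probe sets. Of these, 9 probe sets of 5 genes had a mean signal over the 4 arrays of at least 69.6, the 40th percentile of all probe sets, and were tested. The probe set of Ccr3 and both probe sets of Cx3cr1 lay below it.

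The cells were grown from mouse bone marrow for 7 days in medium holding 20% supernatant of L cells, which supplies M-CSF, and kept overnight without it before stimulation. Both groups were primed with 100 U/ml of interferon-gamma overnight and washed. The LPS_IC group then received immune complexes (antibody and its antigen) and LPS at 10 ng/ml, and the LPS group received LPS at 10 ng/ml, each for 2 h. Each group had 2 arrays. The labels name no strain, sex or age, and do not say whether the 2 arrays of a group stand for separate cultures or animals. The p-values therefore reflect only the spread between these arrays, which could be technical. There were no unprimed or unstimulated cells to compare with.

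Chemokine receptors are seven-pass membrane proteins that couple to inhibitory G proteins and steer cells along gradients of chemokines. Inflammatory receptors such as CCR1 and CCR2 bring monocytes to inflamed tissue, whereas CXCR4 holds leukocytes in the bone marrow through CXCL12 and CCR7 leads maturing dendritic cells to lymph nodes. CCRL2 is an atypical receptor that binds chemerin without signalling through G proteins. In macrophages, LPS is known to lower Ccr2 transcripts and to raise Ccrl2.

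The promoters of Cxcr4 and Ccr1, the genes whose brightest probe sets did not overlap between the groups, are shown with that of Ccr3, which lies on the same stretch of genome as Ccr1 and gave low signals in both groups. Each is the 250 bases before the annotated start in RefSeq's GRCm38.p6, 5′ to 3′ on the gene's strand. Capitals mark matches, on either strand, to any of 6 motifs: AP-1 (TGANTCA), an NF-kB core (GGAANTNCC), a hypoxia and E-box core (ACGTG), a STAT motif (TTCNNNGAA), a TATA box (TATAAA) and a GC box (GGGCGG).
Cxcr4, chr1:128592300-128592549, minus strand: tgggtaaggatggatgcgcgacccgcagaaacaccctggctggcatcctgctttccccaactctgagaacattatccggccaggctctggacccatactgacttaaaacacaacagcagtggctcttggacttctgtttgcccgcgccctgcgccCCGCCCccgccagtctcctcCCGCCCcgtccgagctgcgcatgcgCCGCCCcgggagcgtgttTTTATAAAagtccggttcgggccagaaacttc
Ccr1, chr9:123968693-123968942, minus strand: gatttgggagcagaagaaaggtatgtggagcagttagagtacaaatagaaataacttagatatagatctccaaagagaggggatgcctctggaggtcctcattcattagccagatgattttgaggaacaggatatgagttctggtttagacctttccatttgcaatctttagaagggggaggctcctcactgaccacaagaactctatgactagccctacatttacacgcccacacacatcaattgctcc
Ccr3, chr9:124021721-124021970, plus strand: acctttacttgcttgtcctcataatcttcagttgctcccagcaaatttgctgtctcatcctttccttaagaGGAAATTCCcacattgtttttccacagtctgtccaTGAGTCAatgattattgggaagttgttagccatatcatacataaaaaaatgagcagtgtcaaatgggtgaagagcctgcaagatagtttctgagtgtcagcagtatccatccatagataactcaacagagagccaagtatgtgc

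The Cxcr4 window held 3 GC boxes and a pair of overlapping TATA matches, on opposite strands, that begin 32 and 30 bases before the start. The Ccr1 window held none of the 6 motifs. The Ccr3 window held an NF-kB core beginning 179 bases before the start and an AP-1 match beginning 144 bases before it, which did not overlap. Of all 32851 windows in the table, 6.75% held the AP-1 letters, 3.92% the NF-kB core, 16.6% the hypoxia and E-box core, 7.02% the STAT motif, 12.4% the TATA box and 32.7% the GC box. The last 2 motifs were added after the promoters had been read. Of the other receptors, Ccr2, Ccrl2 and Cx3cr1 also had entries. The 3 windows of Ccrl2 each held the hypoxia and E-box core, 1 of them also a GC box, and those of Ccr2 and Cx3cr1 none of the 6. The Ccrl2 windows chr9:111057271-111057520 and chr9:111057245-111057494 overlap and hold the same match to that core. Ccr7 is named only. In the RefSeq order of protein-coding genes Xcr1, Ccr1, Ccr1l1, Ccr3 and Ccr2 follow each other, Cx3cr1 lies beside Ccr8, and Ccrl2 lies beside Ltf.

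All arrays had a trimmed mean signal of 500, while their low signals differed. The median signal was 155.4 and 68.2 on the LPS_IC arrays of replicates 1 and 2, and 88.3 and 79.6 on the LPS arrays. The 8 macrophage markers, among them Adgre1 (F4/80), Csf1r and Cd68, all passed the filter, with summed signals of 133083 and 150410 on the LPS_IC arrays and 152219 and 186681 on the LPS arrays, so that both LPS_IC sums were the lower ones. Its part in the receptor values was not tested. Lists of markers of other cells summed to far less. The 6 dendritic cell markers gave 1350 and 938.1 on the LPS_IC arrays against 1270 and 1170 on the LPS arrays. The 5 measured neutrophil markers gave 670.1 and 341.5 against 391.7 and 435.4, and the 6 eosinophil, basophil and mast cell markers 606.9 and 117.4 against 231.5 and 73.4. The 4 T and NK cell markers gave 267.6 and 141.6 against 51.4 and 215.8, the 4 B cell markers 544.8 and 324.4 against 341.2 and 394.2, and the 5 fibroblast markers 901.8 and 242.2 against 336.5 and 327.6. No marker had a signal of 0, and for each of these 6 lists the groups overlapped. The LPS_IC array of replicate 1 had the highest sum for all 6.

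Among the tested probe sets, that of Cxcr4 and the brighter one of Ccr1 had higher signals on both LPS_IC arrays than on both LPS arrays, and those of Ccr2, Ccr7 and Ccrl2 overlapped between the groups. None of the 9 tested probe sets passed limma's test at a Benjamini-Hochberg adjusted p under 0.05 over all 27022 tested probe sets, a threshold that 0.0444% of all tested probe sets passed as higher, 0.0074% as lower and 0.0518% in either direction. At an unadjusted limma p under 0.05, 2 of the 9 were higher, the only probe set of Cxcr4 and the brighter one of Ccr1, and none was lower, against 1.86% and 0.947% of all tested probe sets. The same 2 did not overlap between the groups and were higher, which held for 13.6% of all tested probe sets. None was lower without overlap, against 12% of all. The median log2 fold change over the 5 tested genes, each by its brightest probe set, was 0.08, and over all 12891 tested genes it was 0.05. The median of the 5 rested on single arrays and on scaling: it was 0.77 and 0.27 without LPS_IC replicates 1 and 2, 0.14 and 0.63 without LPS replicates 1 and 2, and -0.12 after median centring. In RNA from whole cultures, more cells that express a receptor and more transcript per cell cannot be told apart.

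**Figure D1:**
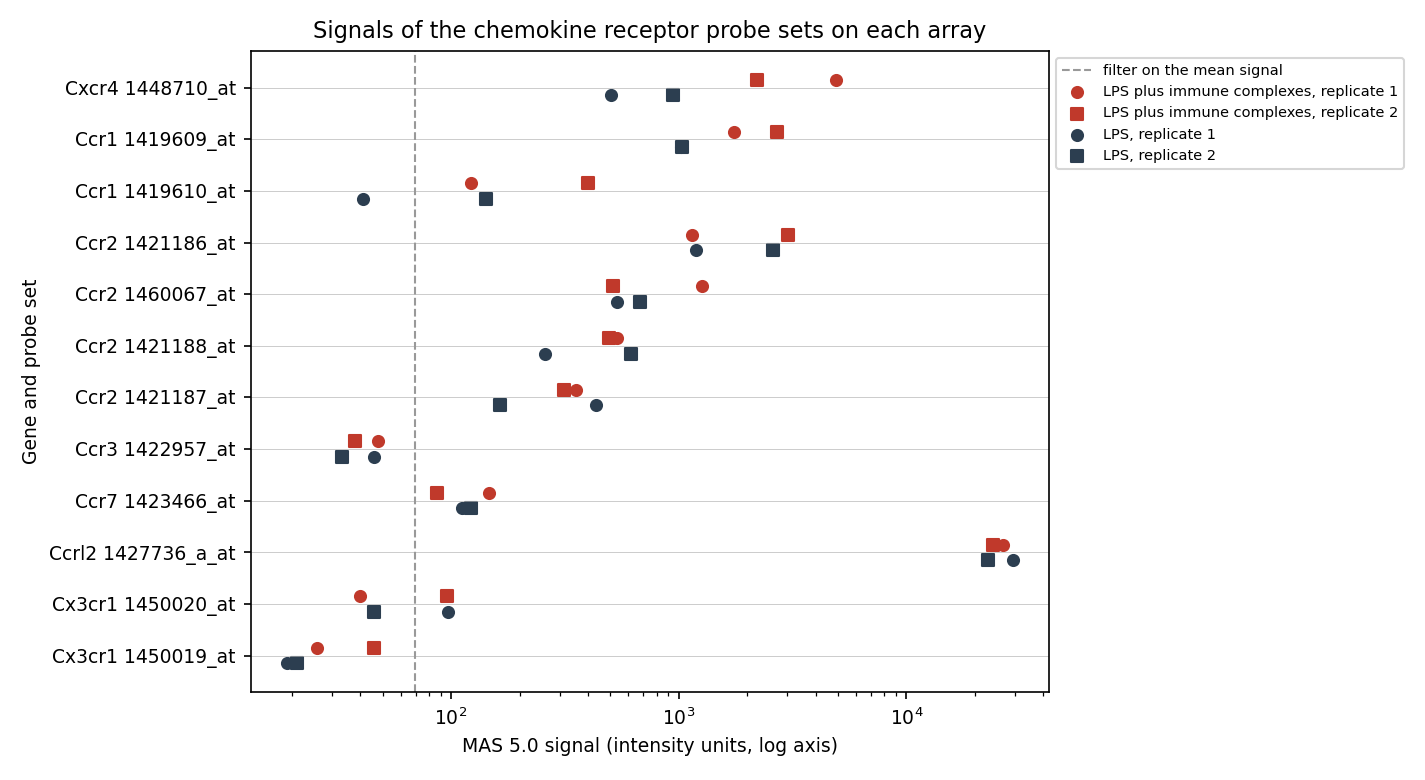
Signals of the 12 chemokine receptor probe sets on each array (x axis, MAS 5.0 signal in intensity units, log scale), with LPS plus immune complexes in red above LPS in dark blue. Circles are replicate 1 and squares replicate 2, and the dashed line is the filter on the mean signal at 69.6. The red and blue points are apart for Cxcr4, for the brighter Ccr1 probe set and, below the filter, for Cx3cr1 1450019_at.

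Cxcr4 encodes the receptor for CXCL12, which also takes up MIF. Its probe set 1448710_at read 4899 and 2203.6 on the LPS_IC arrays of replicates 1 and 2, and 506.4 and 942.1 on the LPS arrays. Both LPS_IC readings lay above both LPS readings, and the ratio of an LPS_IC to an LPS array ranged from 2.34 to 9.67 over the 4 pairs. The means were 3551 ± 1906 in LPS_IC and 724.3 ± 308.1 in LPS (SD, n = 2 arrays each).

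On the log2(signal + 32) scale the Cxcr4 fold change was 2.20 ± 0.46 (SE), or 4.58-fold, with a 95% interval of 1.20 to 3.19 before adjustment for multiple tests. Its limma adjusted p was 0.208, so it did not pass. The call depended on the fit: the limma adjusted p was 0.00736 when dim probe sets were kept. In the other fits of all 4 arrays without a block it was at least 0.107. The fold change was 1.77 without LPS replicate 1 and 2.62 without LPS replicate 2. Without LPS_IC replicate 1, the array with the raised low signals and the highest Cxcr4 reading, it was 1.63, and without LPS_IC replicate 2 it was 2.77. Such fits take the spread of a lone array from the remaining pair, so only their fold changes are given here. The neutrophil marker Elane, of a cell type that carries CXCR4, read 127.7 and 85.2 on the LPS_IC arrays and 16.3 and 19.9 on the LPS arrays, below the filter on the mean. Mpo, another neutrophil marker, read 65.7 and 79.9 on the LPS_IC arrays and 95.2 and 108.2 on the LPS arrays, and the median over the 3 tested markers of that list was -0.35. Their part in the Cxcr4 values was not tested.

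Ccr1 encodes a receptor for CCL3, CCL5 and other inflammatory CC chemokines. Its brighter probe set, 1419609_at, read 1757.6 and 2710.3 on the LPS_IC arrays, and 1019.4 and 1029.5 on the LPS arrays. The LPS readings lay close together, and both LPS_IC readings were above them, 1.71 to 2.66 times as high over the 4 pairs. The log2 fold change was 1.07 ± 0.37, or 2.10-fold, with an unadjusted 95% interval of 0.25 to 1.88 and a limma adjusted p of 1. The dimmer probe set, 1419610_at, read 122.4 and 400 on the LPS_IC arrays, and 41.2 and 142.2 on the LPS arrays. There the groups overlapped, since the LPS_IC reading of replicate 1 lay below the LPS reading of replicate 2. Between arrays of the same replicate number the dimmer probe set was 2.97 times as high in LPS_IC as in LPS for replicate 1 and 2.81 times for replicate 2. Its log2 fold change was 1.19 ± 0.68, with an interval of -0.29 to 2.68 and an adjusted p of 1. The probe sets of Ccr1 thus had values of the same sign and like size, and the dimmer one moved more when an array was left out, between 0.45 and 1.94, against 0.76 to 1.38 for the brighter one.

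Ccr2 encodes the receptor for CCL2, CCL7 and CCL12 that brings monocytes out of the bone marrow. It had 4 tested probe sets, and the groups overlapped in each. The brightest, 1421186_at, read 1138.9 and 3018.2 on the LPS_IC arrays, and 1186.7 and 2598.6 on the LPS arrays. Its readings were high on both arrays of replicate 2 and low on both of replicate 1, whichever the stimulus, and its log2 fold change was 0.08 ± 0.50 with an interval of -1.01 to 1.17.

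The other Ccr2 probe sets did not share that pattern over the arrays. Probe set 1460067_at read 1262.9 and 515.9 on the LPS_IC arrays, and 537.7 and 677.4 on the LPS arrays, so the LPS_IC array of replicate 1 alone stood high. Probe set 1421188_at read 535.9 and 494.8 on the LPS_IC arrays, and 259.7 and 616.1 on the LPS arrays. Probe set 1421187_at read 353.7 and 312.3 on the LPS_IC arrays, and 433.1 and 164.4 on the LPS arrays. In these last 2 probe sets both LPS_IC readings lay between the LPS readings. Their log2 fold changes, in the order named, were 0.41 ± 0.47, 0.33 ± 0.47 and 0.27 ± 0.50, each with a limma adjusted p of 1. All 4 Ccr2 values were above 0 as reported, but each turned negative when a certain array was left out, and the brightest was also negative, at -0.12, with median centring.

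Ccr3 encodes the eotaxin receptor, best known from eosinophils. Its probe set 1422957_at read 47.9 and 37.9 on the LPS_IC arrays, and 45.7 and 33.1 on the LPS arrays, all under the filter. The difference of the log2 values was 0.07, and the readings interleaved. Among eosinophil markers, Epx read 128.1 and 22.5 on the LPS_IC arrays against 20.5 and 23.4 on the LPS arrays, and Siglecf 20.6 and 36.1 against 42.3 and 6.5. The table holds no detection calls, so whether these signals lay above background was not tested.

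Ccr7 encodes the receptor for CCL19 and CCL21. Its probe set 1423466_at read 147 and 86.7 on the LPS_IC arrays, and 111.4 and 122.3 on the LPS arrays. The LPS_IC arrays held both the highest and the lowest reading, and the means were equal at 116.9 in both groups, with an SD of 42.6 in LPS_IC and 7.71 in LPS. The log2 fold change was -0.03 ± 0.62 with an interval of -1.39 to 1.33, so at this signal a change of 2-fold in either direction lay within the error. Of the dendritic cell markers, Itgax read 485.2 and 404.5 on the LPS_IC arrays against 408.4 and 544.8 on the LPS arrays, and Batf3 125.8 and 312.9 against 466.9 and 464.8. Cd209a read 175.7 and 112.5 on the LPS_IC arrays against 99 and 50.5 on the LPS arrays, and the median over the 5 tested markers was 0.01.

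Ccrl2 gave the narrowest interval of the tested receptors. Its probe set 1427736_a_at read 26690.8 and 23942.3 on the LPS_IC arrays, and 29273.4 and 22931.5 on the LPS arrays. Both LPS_IC readings lay between the LPS readings. The log2 fold change was -0.04 ± 0.23 with an interval of -0.54 to 0.47, which spans 0.69-fold to 1.39-fold in the fit as reported. The width of that interval depended on the fit. In the other fits of all arrays without a block, the standard error ranged from 0.20 with quantile normalization to 0.46 with median centring. It was 0.40 with no variance trend and 0.31 without a filter, so wider changes were not excluded. The sign of the fold change turned with quantile normalization, to 0.13. The expression of Rarres2, the gene of its ligand chemerin, was low, at 61.6 and 2.9 on the LPS_IC arrays and 96.8 and 10.6 on the LPS arrays.

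Cx3cr1 encodes the receptor for fractalkine (CX3CL1), a marker of patrolling monocytes and of microglia. Probe set 1450020_at read 39.7 and 95.8 on the LPS_IC arrays, and 96.7 and 45.9 on the LPS arrays, and its mean of 69.5 lay just under the filter of 69.6. Probe set 1450019_at read 25.9 and 45.7 on the LPS_IC arrays, and 19 and 21.1 on the LPS arrays. The LPS_IC readings of 1450019_at were above both LPS readings, whereas those of 1450020_at were not, and the log2 differences were 0.37 and -0.06. When dim probe sets were kept in the fit, their standard errors were 0.67 for 1450019_at and 0.79 for 1450020_at, with limma adjusted p of 1 for both, and Ccr3 likewise had 0.07 ± 0.74 with an adjusted p of 1.

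**Figure D2:**
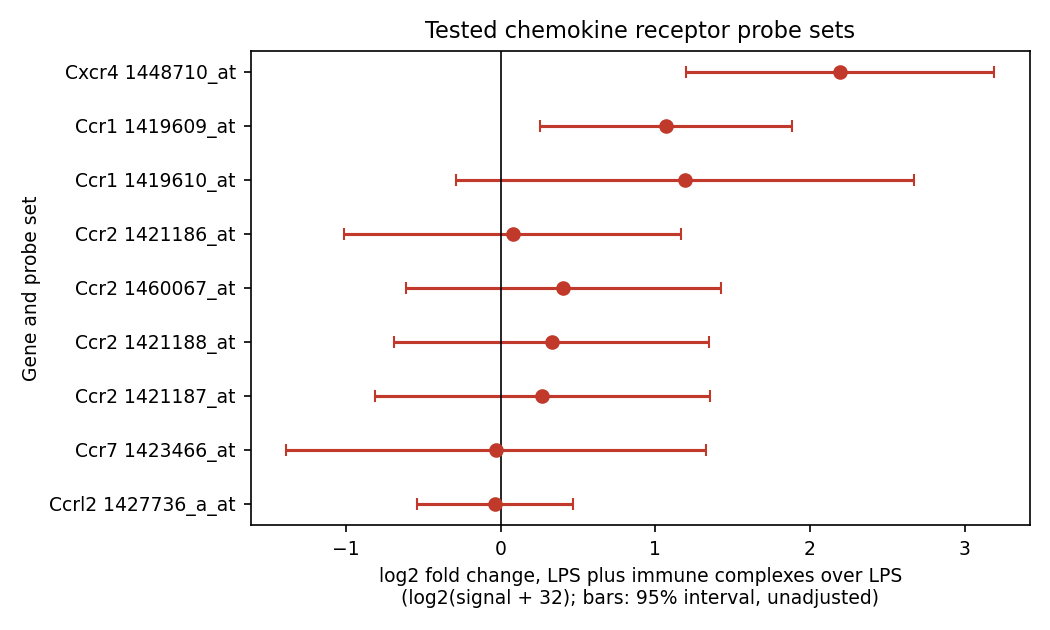
Log2 fold change of LPS plus immune complexes over LPS for the 9 tested receptor probe sets (x axis, on the log2(signal + 32) scale), with 95% intervals from limma that are not adjusted for multiple tests. The intervals of Cxcr4 and of the brighter Ccr1 probe set lie above 0, and that of Ccrl2 is the shortest.

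The receptors were not equally sensitive to the choice of processing. Cxcr4 lay between 1.63 and 2.77 and the brighter Ccr1 probe set between 0.76 and 1.38 under all alternatives without a block, so neither changed sign. Over the same alternatives the brightest Ccr2 probe set ranged from -0.61 to 0.77 and Ccrl2 from -0.23 to 0.14. The median over all tested probe sets was 0.07 as reported, -0.03 after quantile normalization and -0.13 after median centring, and Cxcr4 stood at 2.20, 2.22 and 2.00 in the same fits.

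**Figure D3:**
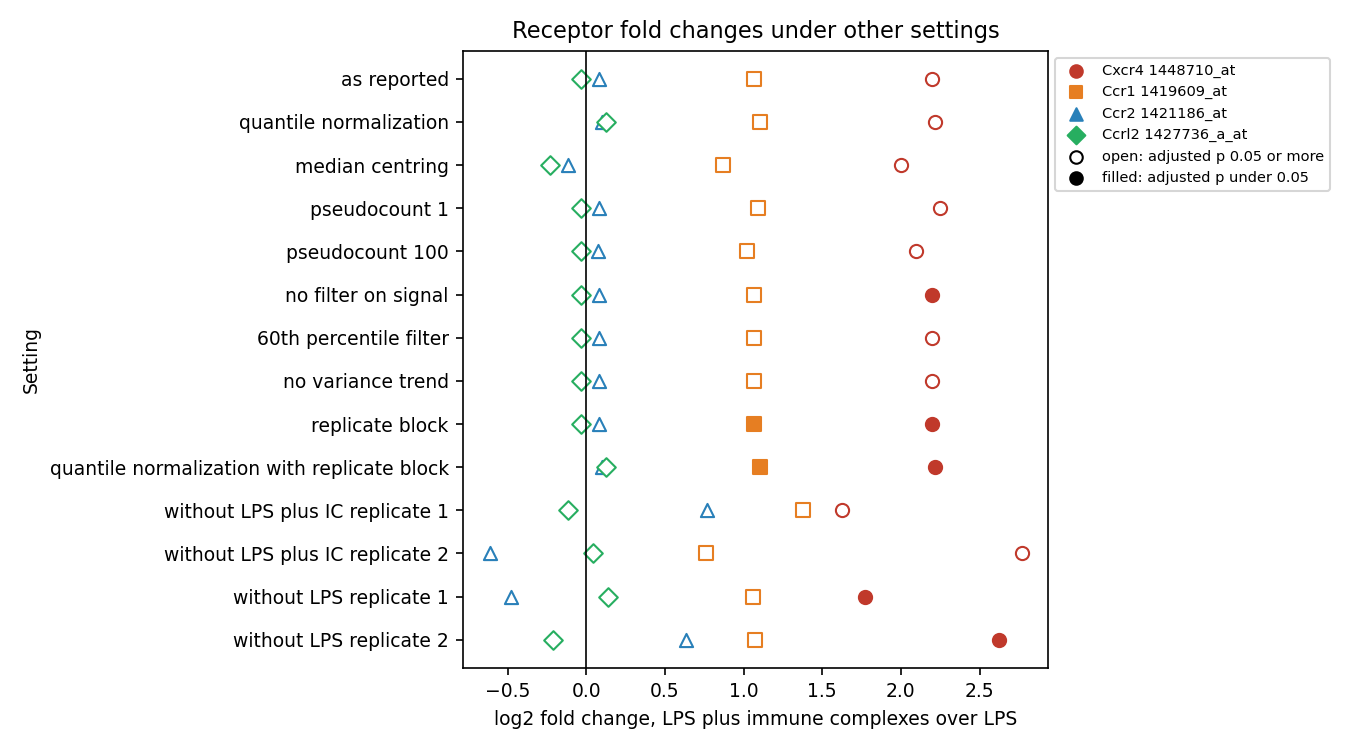
Log2 fold change of LPS plus immune complexes over LPS (x axis) for 4 receptor probe sets under each processing setting (rows), with filled symbols where the limma adjusted p was under 0.05. Cxcr4 stays between 1.63 and 2.77 and the brighter Ccr1 probe set between 0.76 and 1.38, whereas Ccr2 and Ccrl2 fall on both sides of 0.

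The genes whose readings over the 4 arrays were most like those of Cxcr4 were Osm, Jup and Bhlhe40. Likeness was the Euclidean distance between log2(signal + 32) values centred on each gene's mean, over 12890 other tested genes. Osm, oncostatin M, read 2930 and 1783.8 on the LPS_IC arrays, and 360.7 and 523.4 on the LPS arrays, at a distance of 0.41 from Cxcr4. Jup (plakoglobin, a junction protein) and Bhlhe40 (a transcriptional repressor) lay at 0.50 and 0.51. All 3 were highest on the LPS_IC array of replicate 1, as Cxcr4 was, a likeness for which they were chosen. None passed, with limma adjusted p of 0.0945 for Osm, 0.702 for Jup and 0.177 for Bhlhe40. Nearest to Ccr1 were Gfpt1 (the first enzyme of the hexosamine pathway), Pld2 (a phospholipase D) and Tal1 (a transcription factor of blood cells), at distances of 0.11, 0.17 and 0.20. These 3 were highest on the LPS_IC array of replicate 2, as Ccr1 was, again a likeness for which they were chosen.

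Of 16 other chemokine receptors and atypical receptors, 14 were measured and 9 tested. None passed limma's test in either direction, none had an unadjusted p under 0.05, and in none of the 9 were the groups apart. Ccr4, a receptor of T cells whose mean lay under the filter, read 29.3 and 65.3 on the LPS_IC arrays and 12.1 and 12 on the LPS arrays. Genes by their brightest probe set passed in 0.0621% of cases as higher and in 0% as lower, and had an unadjusted p under 0.05 in 1.99% and 1.14%. Ccr9, a gut-homing receptor, had the largest value of the 9 at 0.44 ± 0.70, followed by Cxcr6 (0.30 ± 0.73), Cxcr3 (0.29 ± 0.46), a receptor of T cells, and Ccr6 (0.22 ± 0.66), the receptor for CCL20. Ackr4, a scavenging receptor for CCL19 and CCL21, read 337.5 and 523.1 on the LPS_IC arrays against 352.1 and 426.2 on the LPS arrays. The list's median was 0.15, with 7 of 9 above 0, but it was -0.09 after quantile normalization and -0.05 after median centring. Without LPS_IC replicate 1 it was -0.30, with 3 of 9 above 0, and without LPS_IC replicate 2 it was 0.62, with 8 of 9 above 0.

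The ligands of these receptors included genes on both sides. Of 17 listed, 15 were measured and 13 tested, and limma called none. At an unadjusted limma p under 0.05, 2 were higher and 1 lower, against 1.99% and 1.14% of all tested genes. Ccl2, the main ligand of CCR2, read 10556.4 and 12574.8 on the LPS_IC arrays, and 5339.3 and 4939.4 on the LPS arrays, a log2 fold change of 1.16 ± 0.28 with an adjusted p of 0.307. Ccl7, a ligand of CCR1, CCR2 and CCR3, had 1.50 ± 0.43 with an adjusted p of 0.663. Ccl24, an eotaxin that binds CCR3, had -1.50 ± 0.59 with an adjusted p of 1. In 3 ligands the LPS_IC arrays lay above both LPS arrays, namely Ccl2, Ccl7 and Ccl12 (0.43 ± 0.33). In 3 they lay below, namely Ccl24, Ccl5 (-0.32 ± 0.23) and Ccl4 (-0.18 ± 0.22). Of all tested genes 13.2% lay above in this way and 13.1% below. Ccl3, a ligand of CCR1, differed by -0.03 ± 0.22. Cxcl12, the ligand of CXCR4, read 228.9 and 77 on the LPS_IC arrays and 66.5 and 94.3 on the LPS arrays, and Cx3cl1 had -0.01 ± 0.46. The list's median was -0.07, and 0.01 with quantile normalization. Ccl19 and Ccl26 were not measured and no Ccl21 gene was listed, so the list held no measured ligand of CCR7.

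Genes that silence activated chemokine receptors were measured for 14 of 15 listed and all 14 were tested. None was called by limma, and 1, Rgs1, was higher at an unadjusted limma p under 0.05, against 1.99% of all tested genes. Rgs1 speeds the shut-off of inhibitory G proteins below chemokine receptors. It read 14249.7 and 14961.9 on the LPS_IC arrays, and 8728.8 and 7748.9 on the LPS arrays, a log2 fold change of 0.83 ± 0.26 with an adjusted p of 0.863. Rgs18 had 0.73 ± 0.46 and Rgs2 0.52 ± 0.42. The LPS_IC arrays lay above both LPS arrays for 2 of the 14, Rgs1 and Rgs18, but not for Rgs2. Of all tested genes 13.2% lay above in this way. Arrb2, the arrestin that uncouples and internalises receptors, had -0.60 ± 0.63 and read 1487 and 4638.3 on the LPS_IC arrays against 1918.7 and 8292.6 on the LPS arrays, so the replicate numbers lay further apart than the stimuli. The median of the list was -0.01, with 7 genes on each side of 0, and -0.21 after median centring.

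**Figure D4:**
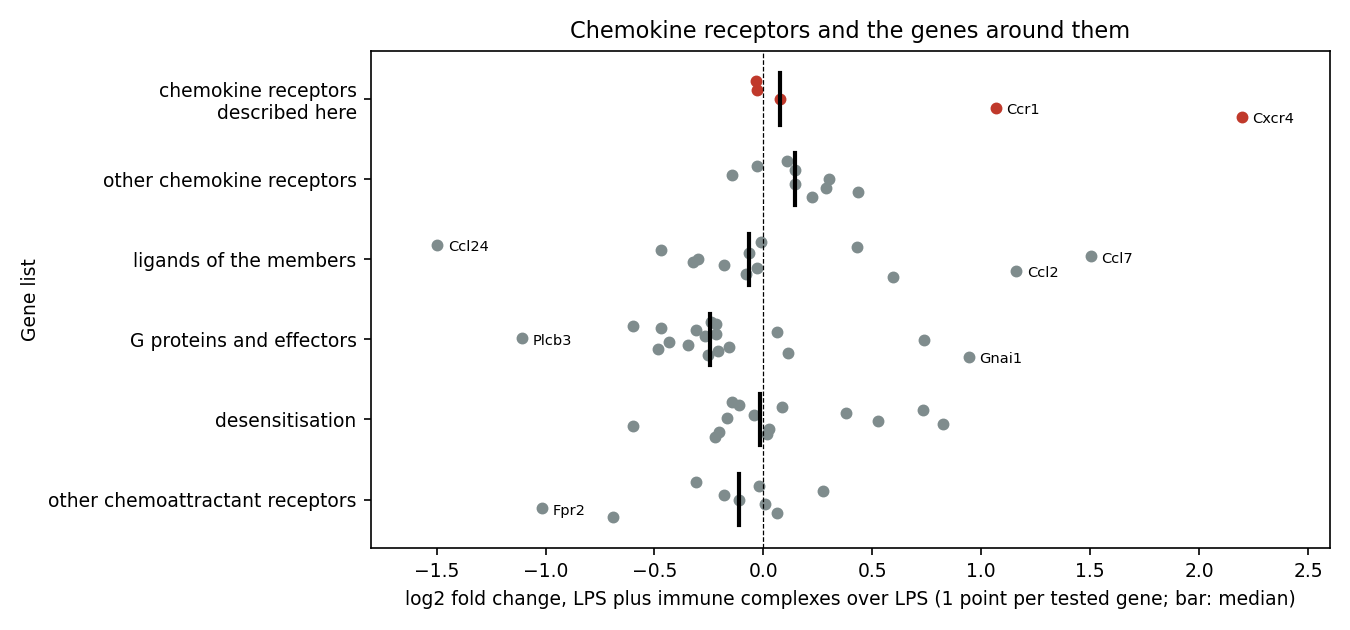
Log2 fold change of LPS plus immune complexes over LPS (x axis) for each tested gene, by its brightest probe set, in the 5 tested receptors (red) and in 5 lists of genes around them (grey), with a bar at each list's median. Cxcr4 at 2.20 stands furthest from 0, the medians lie between -0.25 and 0.15, and no gene shown passed the limma threshold.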

How the data were processed

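RNA of 4 macrophage samples was hybridised to a mouse expression array. The authors deposited MAS 5.0 intensities (linear scale, each array scaled as a whole), per the submitters' processing notes. The trimmed mean of the deposited intensities was 500 on every array, so low signals can still differ between arrays. At most 74 values were identical between any 2 arrays.

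Groups and replicate numbers came from the sample titles. The deposited signals were taken to log2(signal + 32), a scale that shrinks changes of dim probe sets. Leaving out 64 controls and probe sets whose mean fell below the 40th percentile left 27022 of 45037, which were tested two-sided in limma 3.58.1 (R 4.3.3) with a variance trend and without a block. Adjusted p-values are Benjamini-Hochberg values over that whole fit, with 0.05 as threshold, and intervals are limma's 95% intervals. The fit was tested on simulated data. An exact permutation test of 2 against 2 arrays cannot reach the threshold and was not used. The number of arrays limits the precision.

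GEO's annotation names 1 gene for 34945 probe sets, and RefSeq's GRCm38.p6 table holds the gene IDs of 34741 of these. A gene stands by its probe set with the highest mean signal. The rule for naming took all 7 receptors with every probe set, up to 4 genes of each of 5 lists (calls, then the largest changes), all of a count of 5 or fewer, and the 3 genes most like each of the 2 receptors with the largest changes. Rarres2, Ackr4, Ccl3, Cx3cl1 and the markers printed were chosen after their values were seen. Of 78 listed genes 71 were on the array, and of 42 markers 38. The receptors and lists were chosen with earlier results of these data known. Alternatives were quantile normalization, median centring, pseudocounts of 1 and 100, no filter or the 60th percentile, a constant prior variance, the replicate number as a block, each array left out in turn, an adjusted p under 0.1, and averaging a gene's probe sets.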

Additional observations from a re-analysis of the deposited data

How the results depend on the processing

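As reported, limma called 14 of all probe sets, 12 higher and 2 lower, and none of the 9 receptor probe sets. Over all probe sets it called 37 at an adjusted p under 0.1, 0 with quantile normalization, 47 with median centring (33 higher, 14 lower), 23 and 6 with pseudocounts of 1 and 100, 89 without a filter, 4 when filtered at the 60th percentile, 0 with no variance trend, and 0 to 109 with 1 array left out (0 without either LPS_IC array, 97 and 109 without LPS replicates 1 and 2), where the spread of a lone array is taken from the remaining pair. Among the receptors it called 1 without a filter (Cxcr4) and 0 to 1 with 1 array left out (Cxcr4, without either LPS array), and receptor probe sets whose groups did not overlap, 2 as reported, numbered 5 to 6 of 9, when 55.6% to 75.4% of all tested probe sets did not overlap. With the replicate block, 671 probe sets were called, 2 of them receptors, and 903 and 2 with quantile normalization and the block. The 2 were Cxcr4 and the brighter Ccr1 probe set, with adjusted p of 9.44e-15 and 0.00252 in the blocked fit. The labels do not pair the arrays, while same-numbered arrays deviated from their group means with a positive correlation of 0.38 over probe sets. Whether they form pairs was not tested. The prior degrees of freedom were infinite with the block, with median centring, and without LPS replicate 1 or 2. In those fits every probe set took the common spread. Signs turned for Ccrl2 with quantile normalization, with and without the block (0.13), and for 1421186_at of Ccr2 with median centring (-0.12). With 1 array left out, Ccr2 ranged from -0.61 to 0.77 (1421186_at), -0.35 to 0.89 (1421187_at), -0.24 to 0.91 (1421188_at) and -0.21 to 1.03 (1460067_at), Ccr7 from -0.33 to 0.27 and Ccrl2 from -0.21 to 0.14. The cause of these changes was not tested. Averaging the probe sets of a gene gave 1.13 for Ccr1 and 0.27 for Ccr2. With quantile normalization, with and without the block, and with median centring, Ccr7 lay lower without overlap (-0.28, -0.28 and -0.23). In these fits 3 of the 9 receptor probe sets did not overlap. Of all tested probe sets 27.8% did not with quantile normalization and 26.3% with median centring. No other receptor value changed sign or call.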

Other observations

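Macrophages also follow chemoattractants that are not chemokines. Of 12 listed receptors for these, 10 were measured and 9 tested, and limma called none. At an unadjusted limma p under 0.05, none was higher and 1 was lower, against 1.99% and 1.14% of all tested genes. That gene was Fpr2, a receptor for formylated peptides and other ligands, which read 12501.3 and 4727.6 on the LPS_IC arrays and 23241.4 and 10440 on the LPS arrays. Its log2 fold change was -1.02 ± 0.45 with an adjusted p of 1, and the groups overlapped. C5ar1, the receptor for the complement fragment C5a, read 2200.9 and 2064.5 on the LPS_IC arrays and 4185.6 and 2852.1 on the LPS arrays, a log2 fold change of -0.69 ± 0.34 with an adjusted p of 1. It was the only gene of the 9 tested whose LPS_IC readings lay below both LPS readings. Of all tested genes 13.1% lay below in this way. Gpr183 and P2ry2 had -0.31 ± 0.51 and 0.27 ± 0.40.

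All 18 listed G proteins and effectors below chemokine receptors were tested. Limma called none, and none had an unadjusted p under 0.05. Their median was -0.25, with 14 of 18 below 0. Over all 12891 tested genes it was 0.05, with 5915 below 0. The 8 macrophage markers had a median of -0.23, with 6 below 0, and their part in the values of this list was not tested. The median of the G proteins and effectors was -0.15 with quantile normalization, -0.44 with median centring and -0.07 without LPS_IC replicate 1. Plcb3, a phospholipase C beta, had -1.11 ± 0.58, Gnai1 0.94 ± 0.91 and Plcb2 0.74 ± 0.59. Jak2, a kinase of cytokine receptors, had -0.60 ± 0.31 and read 5070.3 and 8661.5 on the LPS_IC arrays against 9934.7 and 10203.2 on the LPS arrays. The LPS_IC readings lay below both LPS readings for Jak2, Rac1 (-0.31 ± 0.25), Rac2 (-0.47 ± 0.29) and Stat3 (-0.22 ± 0.26), and above both for Plcb2. Of all tested genes 13.1% lay below in this way and 13.2% above.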
